A study of Homo sapiens with 2 samples.

Results

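The axon guidance genes described here are the genes of 4 ligand and receptor systems: semaphorins with plexins, neuropilins and collapsin response mediator proteins (CRMPs), ephrins with EPH receptors, slits with roundabout receptors, and netrins with UNC5 receptors and DCC. They were chosen by gene symbol. Of 24459 gene probes on the arrays, 88 carried such a symbol, for 74 of 18638 genes. RNA of SW620, an established colon carcinoma line from a lymph node metastasis, was measured on 1 array for cells that express the circular RNA CDR1AS and on 1 array for cells that contain control lentiviruses. Both were grown in the same medium under normal culture, and both samples are of this 1 line. The labels state no replicate cultures and do not say whether either population was a clone or a pool.

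Guidance molecules steer growing axons by attraction and repulsion at the cell surface. In epithelia and tumours the same molecules act on cell contact, position and migration. Secreted class 3 semaphorins bind neuropilins, which signal through plexins, and CRMPs carry the signal to the cytoskeleton. Ephrins are membrane-bound ligands of EPH receptor tyrosine kinases, and the ordering of cells along the intestinal crypt is a textbook case of their action. Slits repel cells through roundabout receptors, and netrins act through DCC, named as deleted in colorectal carcinoma, and through the UNC5 family.

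On the CDR1AS array the CRMP genes CRMP1 and DPYSL3, both neuropilin genes, the ligand gene SEMA3F and the receptor genes EPHA4 and EPHB6 were higher than on the control array, by 1.52- to 4.81-fold. DPYSL4 was higher by 1 of its 2 probes. The ephrin ligand gene EFNA4 and the receptor gene ROBO1 were lower, by 1.62- and 1.51-fold. The measured plexins, class 4 to 7 semaphorins, slits, netrins and UNC5 receptors lay within 1.5-fold. With the local background of each spot in the correction, CRMP1 and SEMA3F were the members past 1.5-fold on the higher side, and neither EFNA4 (−0.47 on the log2 scale) nor ROBO1 (−0.45) was past it on the lower side. Each group is 1 array, so no difference has a replicate check or a test, and each is a difference between 2 arrays.

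A gene was read from its brightest probe and counted as measured where the spot was above background on at least 1 array, that is, over 2 SD above the blank spots of that array. Of the 74 genes, 66 were measured, 62 on both arrays and 4 (NRP1, DPYSL4, SEMA6D and PLXNA4) on the CDR1AS array alone. The other 8 genes reached the limit on neither array: SEMA3C, SEMA5B, SEMA7A, PLXNC1, EPHB1, UNC5A, UNC5D and DCC. The spot limits were 72.1 on the CDR1AS array and 69.1 on the control array. Among all 18638 genes, 628 passed their limit only on the CDR1AS array and 152 only on the control array. A lean towards the CDR1AS array was therefore not particular to the members. The 4 genes seen on the CDR1AS array alone entered through that array, so a higher count among the 66 is partly fixed by the filter. For these genes the dim side was set to the floor and the fold is written as "at least".

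The CDR1AS array had 2 members at least 2-fold higher than the control array and 0 at least 2-fold lower. Among all 16685 genes measured, 0.755% were at least 2-fold higher and 0.575% at least 2-fold lower. At or past 1.5-fold, 8 members were higher and 2 lower, against 2.61% and 2.23% of all genes measured. The members' median log2 ratio, CDR1AS over control, was −0.012, beside −0.0035 over all genes, so both medians lay close to 0. Of the 8 higher members, 6 belonged to the semaphorin system, which had 32 measured genes. Members were dimmer than most genes: 30.3% of them had spots averaging at least 2 times the background limit, against 47.0% of all genes. In this brighter part 4 of 20 members were at least 1.5-fold higher, beside 4.55% of all genes, and in the dimmer part 4 of 46, beside 0.893%. Of the 4 in the dimmer part, NRP1 and DPYSL4 passed the filter only through the CDR1AS array. The count in the dimmer part is therefore partly fixed by the filter.

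**Figure D1:**
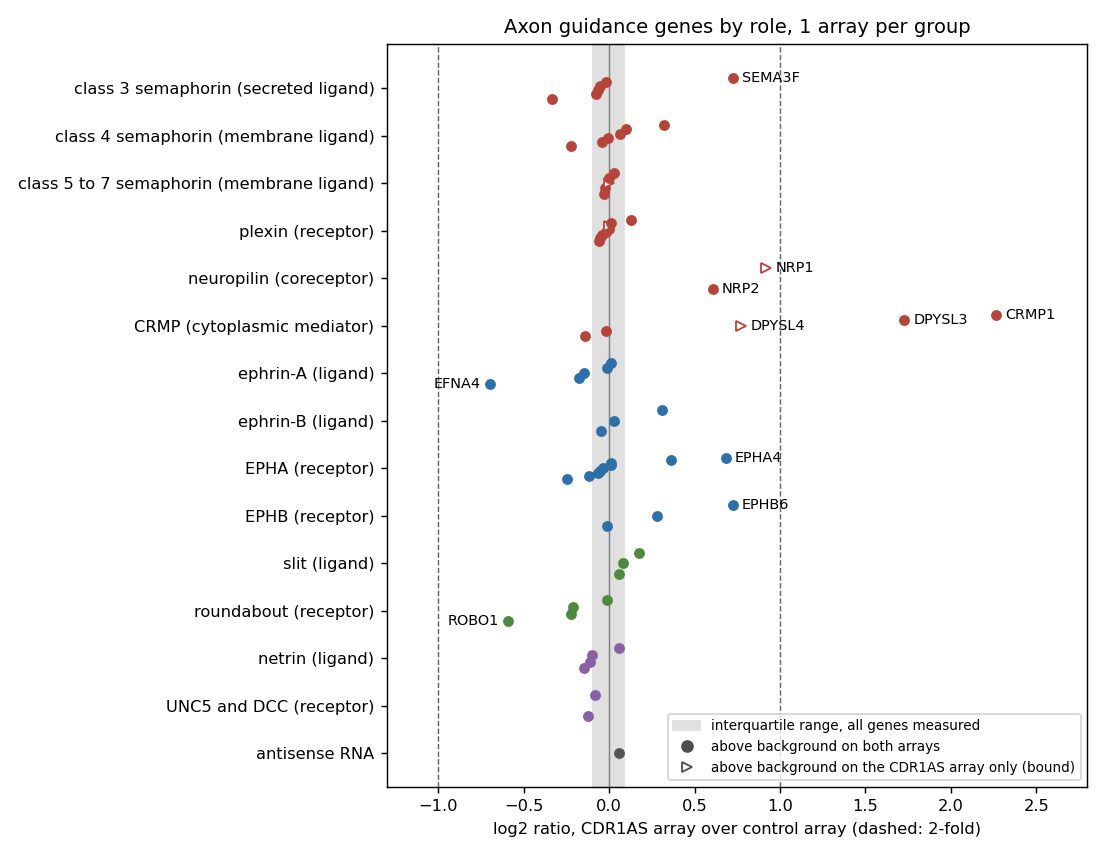
Log2 ratio (CDR1AS array over control array) of each measured member by role, with the interquartile range of all genes measured shaded and dashed lines at 2-fold. CRMP1 and DPYSL3 lie past the upper line, while plexins, slits and netrins stay close to 0.

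Class 3 semaphorins are secreted ligands, and among their 6 measured genes SEMA3F alone was past 1.5-fold. SEMA3F, which binds NRP2 and was first known as a candidate tumour suppressor of lung cancer, had a spot intensity of 453 on the CDR1AS array and 258 on the control array, 1.65-fold higher (log2 ratio 0.72). Its other probe read 185 on the CDR1AS array and 121 on the control array (0.57), so both probes gave the same direction. The ratio of SEMA3F was 1.24, past 2-fold, with the local background in the correction. SEMA3A, the classical repellent ligand of NRP1, had 842 on the CDR1AS array and 975 on the control array, a log2 ratio of −0.34. The other 4 measured class 3 genes, SEMA3B, SEMA3D, SEMA3E and SEMA3G, had ratios between −0.08 and −0.02.

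Class 4 semaphorins are membrane-bound ligands, and all 6 genes were above background on both arrays. SEMA4C, a ligand of PLXNB2, was the highest with 208 on the CDR1AS array and 158 on the control array (0.32). SEMA4G was the lowest with 130 on the CDR1AS array and 139 on the control array (−0.22), and its other probe gave −0.04. SEMA4D, the ligand of PLXNB1, had a log2 ratio of −0.04 and PLXNB1 itself −0.0018, but PLXNB1 was at −0.59 with the local background in the correction. Among the other membrane semaphorins, 5 of 7 genes were measured and all were close to the floor, between −0.03 (SEMA5A) and 0.03 (SEMA6A). SEMA6D was above background on the CDR1AS array only, at 73.2 against a limit of 72.1, and no fold is given. The antisense transcript SEMA6A-AS1, whose symbol also met the rule, had 94.3 on the CDR1AS array and 86.3 on the control array (0.06).

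The plexins are the signalling receptors of semaphorins, and none was past 1.5-fold. Of 9 genes 8 were measured, with a highest ratio of 0.13 for PLXNB3 and a lowest of −0.06 for PLXNA2. PLXNA1, a partner of NRP1, had 370 on the CDR1AS array and 341 on the control array (0.01). PLXNA4 was above background on the CDR1AS array only, at 72.6, with no fold given, and PLXNC1, the receptor of SEMA7A, was above background on neither array, as was its ligand gene.

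The neuropilins, coreceptors that also bind VEGF, were both higher on the CDR1AS array. NRP1 had a spot of 126 on the CDR1AS array and 66.7 on the control array, where the limit was 69.1, and was at least 1.89-fold higher. NRP2, the preferred receptor of SEMA3F, had 137 on the CDR1AS array and 89.4 on the control array, 1.52-fold higher (0.61). NRP1 was thus detected on the CDR1AS array alone, and NRP2 was dim but detected on both arrays. In the authors' deposited table, which gives the intensity over the blanks on a linear scale, NRP2 had 31.0 on the CDR1AS array and 11.2 on the control array, 2.77-fold higher. The deposited value of NRP1 was 26.0 on the CDR1AS array and empty on the control array. Both were within 1.5-fold, at 0.30 each, with the local background in the correction.

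The CRMPs are cytoplasmic phosphoproteins that bind tubulin and actin regulators and pass on semaphorin signals. They held both members past 2-fold. CRMP1 had a spot intensity of 422 on the CDR1AS array and 92.9 on the control array, 4.81-fold higher (2.27), which ranked it 10 from the top among 16685 genes. DPYSL3, which encodes CRMP4, had 660 on the CDR1AS array and 194 on the control array, 3.31-fold higher (1.73), at rank 28. Its other probe had 176 on the CDR1AS array and 86.1 on the control array (1.07). Both DPYSL3 probes were past 2-fold, whereas CRMP1 rests on 1 probe.

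DPYSL4, which encodes CRMP3, had a spot of 115 on the CDR1AS array and 66.4 on the control array, below the limit there, and was at least 1.71-fold higher. Its other probe had 77.0 on the CDR1AS array and 68.7 on the control array, close to the limits on both, with a measured ratio of 0.10, so the probes differed. DPYSL2, which encodes CRMP2, the family's best known member in axon formation, had 116 on the CDR1AS array and 110 on the control array (−0.02). DPYSL5, which encodes CRMP5, had 93.3 on the CDR1AS array and 95.6 on the control array (−0.14). DPYSL4 was counted only through the CDR1AS array, and its ratio was 0.43 as the median of its probes and 0.14 with the local background in the correction. The family was thus split between CRMP1 and DPYSL3, past 2-fold, and DPYSL2 and DPYSL5, within 1.5-fold.

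**Figure D2:**
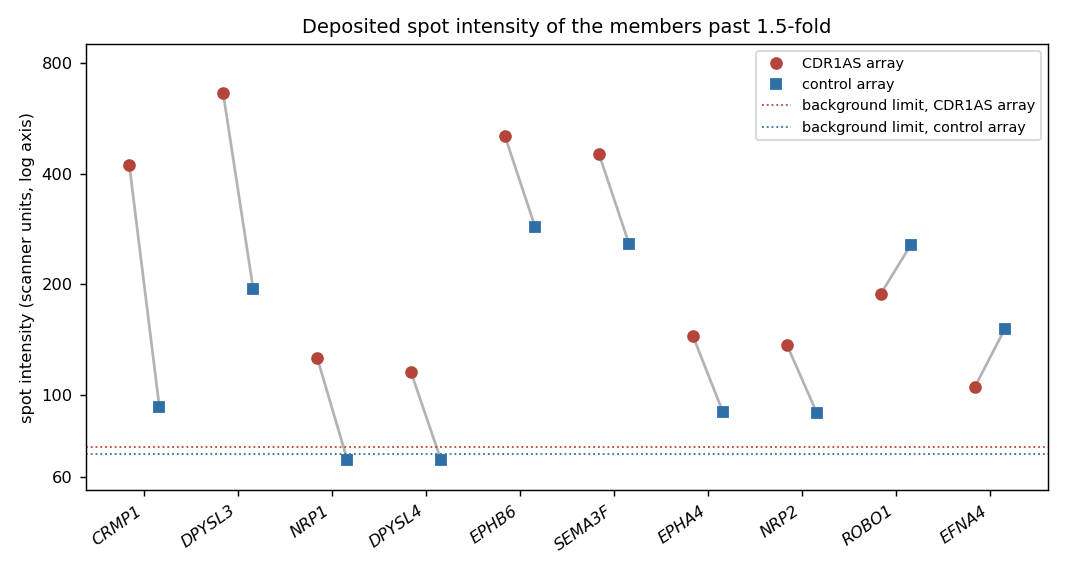
Deposited spot intensity (scanner units, log axis) on the CDR1AS array (circles) and the control array (squares) of the 10 members past 1.5-fold, with the background limit of each array dotted. The control spots of NRP1 and DPYSL4 lie below their limit, and CRMP1 shows the widest gap.

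The offset used in the background correction compresses the folds of dim genes. In the authors' deposited table CRMP1 had 161.5 on the CDR1AS array and 12.9 on the control array, 12.5-fold higher. DPYSL3 had 270.3 there on the CDR1AS array and 60.9 on the control array, 4.44-fold higher. Where the local background of each spot entered the correction, CRMP1 was still past 2-fold (1.08) and DPYSL3 was not (0.55). Under that setting 2 members, CRMP1 and SEMA3F, or 3.03%, were at least 2-fold higher, beside 4.64% of all genes. The local background beside the CRMP1 spot read 173 on the CDR1AS array and 62.2 on the control array. Beside the DPYSL3 spot it read 280 on the CDR1AS array and 78.3 on the control array. For these 2 spots it was thus higher on the array with the brighter spot. That did not hold for SEMA3F, whose spot read 453 on the CDR1AS array and 258 on the control array. The local background beside it read 226 on the CDR1AS array and 249 on the control array. Over the alternatives that kept it, the log2 ratio of CRMP1 ranged from 1.08 to 3.65 and that of DPYSL3 from 0.55 to 2.15, always higher on the CDR1AS array.

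**Figure D3:**
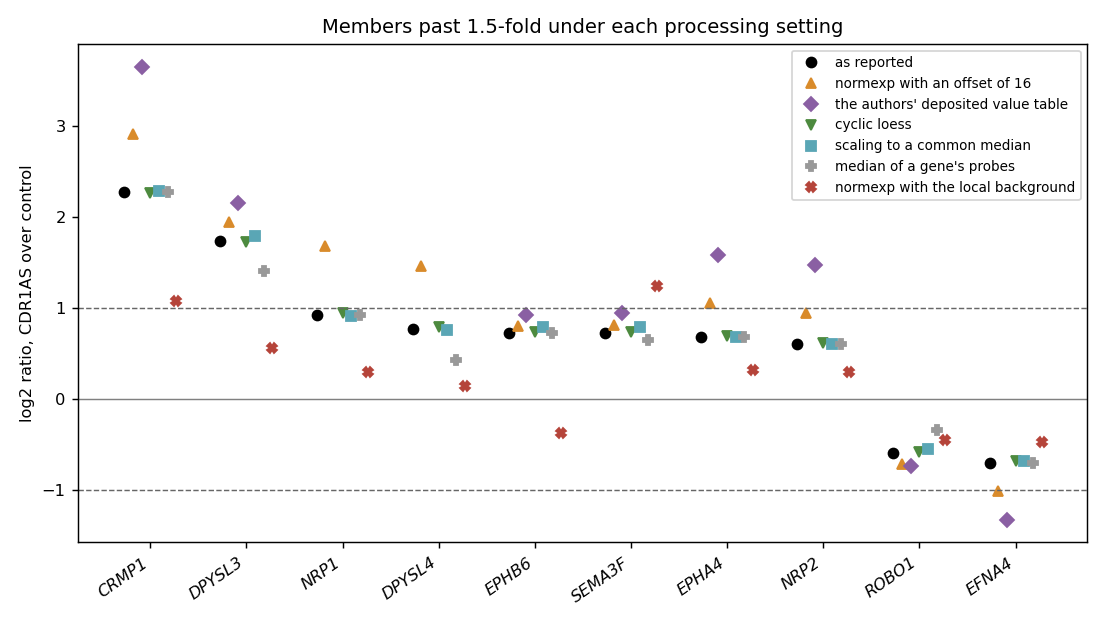
Log2 ratio (CDR1AS over control) of the 10 members past 1.5-fold under the reported setting and 6 alternatives, with dashed lines at 2-fold. Points of CRMP1 stay above 1 throughout, and with the local background in the correction EPHB6 falls below 0 and DPYSL3 below 1, while SEMA3F passes 1.

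The sequences upstream of the start sites are shown for the CRMP genes with a probe past 1.5-fold (CRMP1, DPYSL3, DPYSL4) and for DPYSL5, which was not, so that family members that differed on the arrays can be read side by side. DPYSL2, also within 1.5-fold, had no window. Any other RefSeq start site of a gene was left out, and which start the cells used was not measured. Each is the 250 bases before the start site that lies farthest upstream in RefSeq (GRCh38.p14), 5′ to 3′ on the gene's strand, with the GC box GGGCGG or its other-strand form CCGCCC in capitals.
CRMP1, chr4:5893087-5893336, minus strand: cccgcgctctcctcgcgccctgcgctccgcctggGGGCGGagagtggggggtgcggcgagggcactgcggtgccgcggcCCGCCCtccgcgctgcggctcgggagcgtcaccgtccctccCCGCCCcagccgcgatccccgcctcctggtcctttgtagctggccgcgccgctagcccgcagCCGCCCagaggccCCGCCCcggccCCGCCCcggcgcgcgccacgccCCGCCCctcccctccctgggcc
DPYSL3, chr5:147510069-147510318, minus strand: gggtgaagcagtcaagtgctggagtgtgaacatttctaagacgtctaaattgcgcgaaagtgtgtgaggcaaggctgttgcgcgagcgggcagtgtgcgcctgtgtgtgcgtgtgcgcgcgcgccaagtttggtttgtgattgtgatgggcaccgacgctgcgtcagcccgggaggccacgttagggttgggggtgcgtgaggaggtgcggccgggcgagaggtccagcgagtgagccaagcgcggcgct
DPYSL4, chr10:132186698-132186947, plus strand: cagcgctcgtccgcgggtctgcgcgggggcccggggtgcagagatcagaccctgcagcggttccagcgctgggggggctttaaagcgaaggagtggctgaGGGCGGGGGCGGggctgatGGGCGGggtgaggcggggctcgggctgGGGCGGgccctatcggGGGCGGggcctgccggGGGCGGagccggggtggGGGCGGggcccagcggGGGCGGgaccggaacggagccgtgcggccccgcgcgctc
DPYSL5, chr2:26847745-26847994, plus strand: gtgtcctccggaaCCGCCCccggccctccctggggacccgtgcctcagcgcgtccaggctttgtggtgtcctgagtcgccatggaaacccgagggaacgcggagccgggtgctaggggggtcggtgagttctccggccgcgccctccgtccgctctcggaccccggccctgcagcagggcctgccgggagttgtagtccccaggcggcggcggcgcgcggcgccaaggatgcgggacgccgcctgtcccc

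The CRMP1 window held 7 GC boxes, the DPYSL3 window 0, the DPYSL4 window 8 and the DPYSL5 window 1, counted on both strands. Their GC contents were 82.8%, 62.8%, 80.0% and 74.8% in that order, and none held the TATA box TATAAA on either strand. Neither count separated these 3 genes from DPYSL5, since DPYSL3 had fewer GC boxes and CRMP1 more. Of 74 members 63 had a window, 46 of them (73.0%) with at least 1 GC box, beside 42.2% of 27305 RefSeq windows of the same length. The members' windows had a median GC content of 65.6%, against 57.6% over all windows, and a motif rich in G and C is found more often where that content is high. A match of letters is not a bound site.

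Some genes near CRMP1 on chromosome 4 were also higher on the CDR1AS array. Of the 10 nearest measured genes, 5 on each side in RefSeq order, 3 were past 2-fold, all of them higher. Among all genes measured, 0.755% were at least 2-fold higher. The median log2 ratio of these 10 neighbours was 0.04, so most of them differed little. PPP2R2C, a regulatory subunit gene of phosphatase 2A, had 734 on the CDR1AS array and 241 on the control array (1.53). WFS1, which encodes wolframin of the endoplasmic reticulum, had 419 on the CDR1AS array and 171 on the control array (1.26), and CYTL1, a secreted cytokine-like protein gene, had 223 on the CDR1AS array and 72.4 on the control array (1.73). The raised genes were not contiguous, because EVC (0.01) and C4orf50 (−0.13), which flank CRMP1, did not differ by 1.5-fold. These neighbours were named after their values were seen. For the other 9 members past 1.5-fold, 0 of 10 neighbours each were past 2-fold. Their neighbours' medians lay between −0.07 and 0.05, a range that also holds the median beside CRMP1.

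**Figure D4:**
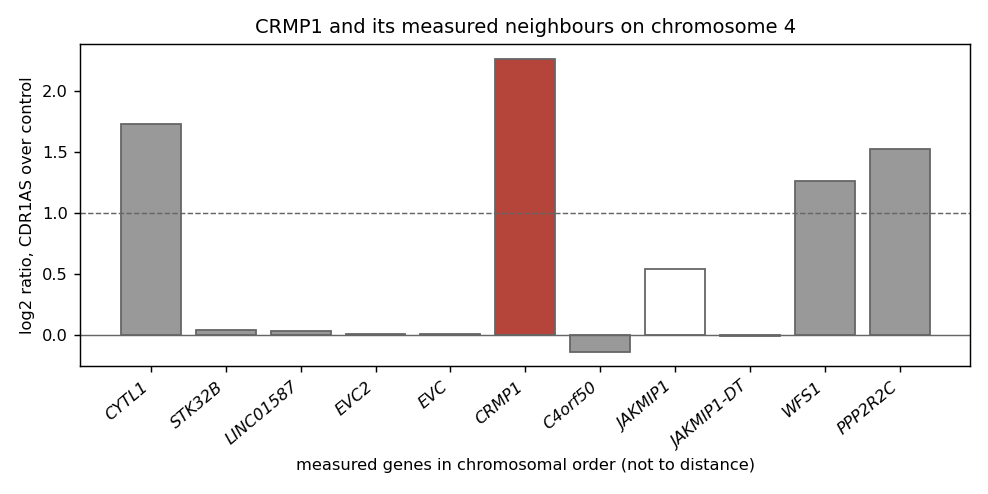
Log2 ratio (CDR1AS over control) of CRMP1 and of the 5 nearest measured genes on each side, in chromosomal order and not to distance. Open bars (EVC2 and JAKMIP1) are bounds for genes detected on the CDR1AS array alone. CYTL1, WFS1 and PPP2R2C pass the dashed 2-fold line, and the immediate neighbours of CRMP1 do not.

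The ephrin system had 21 genes, of which 20 were measured on both arrays, and 0 were past 2-fold. The ephrin-A ligands are anchored to the membrane by a lipid, and EFNA4 was the only one past 1.5-fold. EFNA4 had 105 on the CDR1AS array and 151 on the control array, 1.62-fold lower (−0.70), and in the authors' deposited table it was 2.51-fold lower. EFNA3 and EFNA1, which follow EFNA4 directly on chromosome 1, had ratios of −0.15 and −0.17. EFNA3 had 656 on the CDR1AS array and 663 on the control array, and EFNA1 had 573 on the CDR1AS array and 591 on the control array, so neither was past 1.5-fold. With the local background in the correction EFNA3 was at −0.61 and EFNA4 at −0.47, so there the order was turned. EFNA2 (−0.01) and EFNA5 (0.01) were near the floor.

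The ephrin-B ligands span the membrane. EFNB2, the ligand of EPHB4, had 817 on the CDR1AS array and 771 on the control array (−0.04). EFNB1, whose loss disturbs tissue boundaries, had 107 on the CDR1AS array and 84.3 on the control array (0.31). EFNB3 had a ratio of 0.03. None of these 3 genes was past 1.5-fold.

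Among the EPHA receptors EPHA4 was the highest of 9 genes. EPHA4, which binds ephrins of both classes, had 145 on the CDR1AS array and 89.9 on the control array, 1.61-fold higher (0.68), and its value in the authors' deposited table was 34.5 on the CDR1AS array and 11.5 on the control array. Its ratio was 0.32, within 1.5-fold, with the local background in the correction. EPHA2, a receptor often abundant in carcinoma cells, had 996 on the CDR1AS array and 709 on the control array, 1.29-fold higher (0.36). EPHA7 was the lowest, with 252 on the CDR1AS array and 272 on the control array (−0.25), but its ratio was 0.12 with the local background in the correction. The other 6 EPHA genes had ratios between −0.12 (EPHA5) and 0.01 (EPHA6).

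Some EPHB receptors respond to Wnt signals in the intestine and place cells along the crypt. Of the 4 EPHB genes on the arrays, EPHB6, EPHB4 and EPHB3 were measured. No probe in use carried the symbol EPHB2. EPHB6, a receptor without kinase activity, had 505 on the CDR1AS array and 287 on the control array, 1.65-fold higher (0.72). With local background in the correction the direction of EPHB6 turned (−0.37), where the background beside its spot read 476 on the CDR1AS array and 237 on the control array. EPHB4 had 105 on the CDR1AS array and 83.9 on the control array (0.28). EPHB3, a Wnt target in crypt cells, had 118 on the CDR1AS array and 112 on the control array (−0.01). At 1.5-fold the higher members of the ephrin system, EPHA4 and EPHB6, were receptors, and the lower one, EFNA4, was a ligand. Of its 20 measured genes, 9 were EPHA and 3 were EPHB receptors. None of these calls at 1.5-fold remained with the local background in the correction.

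Slits and roundabouts had small differences, with ROBO1 past 1.5-fold. The 3 slit ligands had ratios above 0, from 0.06 (SLIT1) to 0.17 (SLIT3), and the 4 roundabout receptors below 0, although the other probe of SLIT2 gave −0.04. SLIT3 had 1110 on the CDR1AS array and 897 on the control array. With the local background in the correction the directions of SLIT3 (−0.30), SLIT1 (−0.014) and ROBO4 (0.04) turned. ROBO1, a receptor of slits, had 188 on the CDR1AS array and 256 on the control array, 1.51-fold lower (−0.59). Its other probe had 176 on the CDR1AS array and 174 on the control array (−0.09), so the probes of ROBO1 did not give the same size. ROBO2 (−0.21), ROBO3 (−0.22) and the endothelial ROBO4 (−0.01) lay within 1.5-fold.

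The netrin system was near the floor on both arrays. The 4 netrin ligands had ratios from −0.15 (NTN3) to 0.06 (NTN4), and NTN1, the classical attractant, had 88.5 on the CDR1AS array and 89.2 on the control array (−0.11). Of the receptors only UNC5B (−0.12) and UNC5C (−0.08) were above background. DCC had 69.0 on the CDR1AS array, where the limit was 72.1, and 66.7 on the control array, where it was 69.1. At these intensities differences in the receptors were not detectable. The median of the 6 measured genes was −0.11, and −0.64 in the authors' deposited table, which takes ratios of values close to 0.

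Genes outside the 4 families were described from a pair of lists. Of 35 measured other guidance ligands, receptors and coreceptors, 14 had ratios above 0, 20 had ratios below 0 and 0 were past 2-fold (median −0.03). The VEGF receptor gene FLT1 had 74.8 on the CDR1AS array and 101.7 on the control array (−0.63), and was the only one past 1.5-fold. Of 57 measured cytoplasmic effectors, 37 had ratios above 0 and 19 below (median 0.08), and 1 was past 2-fold in each direction. For comparison with both lists, the 16685 measured genes split into 7874 positive and 8515 negative ratios. Their 2-fold shares were 0.755% upward and 0.575% downward. ENAH, an actin regulator at the leading edge whose fly counterpart acts downstream of the roundabout receptor, had 207 on the CDR1AS array and 70.4 on the control array, 3.18-fold higher (1.67). The control spot of ENAH was close to the limit of 69.1 on that array, and no other probe of the gene was in use. In the authors' deposited table it had 62.9 on the CDR1AS array and 2.2 on the control array. CDK5, a kinase that phosphorylates CRMPs in neurons, had 203 on the CDR1AS array and 375 on the control array, 2.07-fold lower (−1.05), while its activator gene CDK5R1 had a ratio of 0.0060. CHN1, a Rac regulator downstream of EPHA4, was 1.72-fold higher, and both of its probes gave 0.78. The kinase gene ROCK2, which acts below RhoA, was 1.65-fold lower (−0.72), and the MICAL-like gene MICALL2 1.61-fold lower (−0.68).

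Because guidance genes are typical of neurons and vessels, markers of other cell types were read beside them. In RNA of a whole culture, fewer cells of a type and less RNA per cell cannot be told apart. Of 10 neuronal markers 9 were above background on both arrays, beside 85.3% of all genes on the arrays, and ELAVL4 on neither. TUBB3, the neuronal beta-tubulin that carcinoma lines can also express, was 2.77-fold higher, with 619 on the CDR1AS array and 216 on the control array. The net intensity summed over the 10 genes was 1068 on the CDR1AS array and 760 on the control array, and without TUBB3 519 on the CDR1AS array and 610 on the control array. SNAP25 had a ratio of 0.35, STMN2 of 0.08, SYP of −0.13 and SYT1 of −0.43. Of the 9 measured neuronal markers 5 had ratios above 0 and 4 below, with a median of 0.0063.

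Of 8 endothelial markers 6 were above background on the CDR1AS array and 4 on the control array, with a summed net intensity of 158 on the CDR1AS array and 116 on the control array. Without PECAM1 the sums were 129 on the CDR1AS array and 115 on the control array. PECAM1 had 98.3 on the CDR1AS array and 66.4 on the control array, below the limit there, and TEK and EMCN were above background on neither. Of 9 fibroblast markers 5 were above background on the CDR1AS array and 4 on the control array, with sums of 377 and 387 in that order, and COL1A1, COL1A2, COL3A1 and POSTN were above background on neither. The higher endothelial and fibroblast counts on the CDR1AS array go the same way as all genes, where 628 passed only there and 152 only on the control array. The part of these cell types in the guidance genes was not tested. Of 9 colon epithelial markers 8 were above background on the CDR1AS array and 9 on the control array. A count above background does not separate cell types, because 85.3% of all genes on the arrays were above it on both. KRT18 was the brightest of the 9, with 47565 on the CDR1AS array and 56040 on the control array. CEACAM5 was near the limits, with 69.4 on the CDR1AS array and 69.9 on the control array. The log2 ratios of the colon markers were above 0 for 3 genes and below 0 for 6, with a median of −0.09, and VIL1 (0.19) was the highest. EPCAM had 6334 on the CDR1AS array and 8538 on the control array (−0.54), and CDX2, the intestinal transcription factor, had 109 on the CDR1AS array and 170 on the control array (−0.82).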

How the data were processed

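Total RNA of 1 CDR1AS sample and 1 control sample was hybridised to 1-colour Cy5 arrays. Per the file headers, the deposited intensity of a spot is its median brightness at 635 nm, read at 3 scanner gains. The sources used here do not give how the gains were joined or the build behind the probe design. Each column of the authors' deposited table was a straight line of the spot intensity, with a largest residual of 0.0559 units, a zero at 69.4 (CDR1AS) and 65.8 (control), near the blank means of 69.5 and 65.9, and a median of 25 on both arrays. Scale, centring and direction were thereby settled.

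Intensities were corrected by normexp without the local background (offset 50), quantile normalised and put on the log2 scale with limma 3.58.1 in R 4.3.3. The local background was not used because it followed the spot's brightness (Pearson's r across spots, log scale, 0.944 on the CDR1AS array and 0.978 on the control array). A quality flag removed 1 of 24460 gene probes. Repeated control spots varied by an SD of 0.10 to 0.24 (log2, 24 spots each), a spread within arrays that covers no difference between cultures. Gene names came from the platform's annotation. Steps were tested on simulated data. The members and lists were chosen with earlier results of these data known. Named were members past 1.5-fold, those above background on 1 array, the highest and lowest of each role, genes whose probes differed by over 0.5, and list genes past 2-fold; others were added as context after their values were seen. Alternatives changed the offset, local background, normalization, filter and choice of probe, and included the deposited table. The number of arrays limits the precision.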

Additional observations from a re-analysis of the deposited data

How the results depend on the processing

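The counts of members, the medians of members and systems and the ratios of 33 named members were recomputed under 8 alternatives. The chromosomal neighbours, the genes of the pair of lists and the cell type markers were not, and their ratios stand at the reported setting only. Members at least 2-fold higher numbered 2 as reported, 5 with an offset of 16 (beside 1.37% of all genes) and 4 in the authors' deposited table (3.32%). A stricter filter, with spots at least 2 times the limit on both arrays, left 19 members, of which 1 was at least 2-fold higher (1.01%). It left out CRMP1, DPYSL4, NRP1, NRP2, EPHA4 and EFNA4, so these genes were not counted there. Members at least 2-fold lower numbered 0 as reported, 1 with an offset of 16 (beside 1.03% of all genes) and 2 in the deposited table (2.26%). Members at least 1.5-fold higher numbered 8 as reported, 2 with the local background in the correction (beside 8.60% of all genes) and 3 with the stricter filter (3.81%). Members at least 1.5-fold lower numbered 2 as reported and 7 in the deposited table (beside 6.39% of all genes). They numbered 1 each with cyclic loess (2.16%), scaling to a common median (1.88%), the stricter filter (3.70%) and the median of a gene's probes (2.12%). ROBO1 lies at the 1.5-fold limit and was within it with loess (−0.58), common-median scaling (−0.54), the local background (−0.45) and the median of its probes (−0.34). With the local background the count of 2 lower members stands for other genes, EFNA3 (−0.61) and PLXNB1 (−0.59), and the calls of NRP1, NRP2, DPYSL3, DPYSL4, EPHA4, EPHB6, EFNA4 and ROBO1 at 1.5-fold end. The members' median log2 ratio stayed between −0.037 and 0.024. Among values of systems and named genes, 233 moved by less than the largest SD of repeated control spots (0.24 on the log2 scale) and 35 by more. No member past 2-fold changed direction under these alternatives. The counts at 1.5-fold were tried under the alternatives after seeing the data. No paired analysis was possible because each group is 1 array. Of the 66 measured members, 46 had spots averaging under 2 times the background limit, where an offset of 50 compresses folds and small differences were not detectable.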
